A study of Arabidopsis thaliana with 8 samples.

Results

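A set of 144 probe sets on the ATH1 array, out of 22746 that are not controls (0.633%), fell within 1 day of cold. After 7 days they stood near their starting level again or above it. They were chosen by their measured values. With L as log2 of a group's mean signal plus 8, L at 24 h lay at least 1 below L at 0 h, L at 7 days lay at least 1 above L at 24 h, and L at 7 days lay less than 0.5 below L at 0 h. Both 24 h arrays also had to be lower than every 0 h and 7-day array. Organelle probe sets, 5 named genes and 3 further probe sets were left out by the same rule; of the 145 probe sets that met the thresholds, this removed 1. The fall, the rise and the return are therefore properties of the selection, and they are given below as a description without a test.

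RNA came from whole Col-0 seedlings, 10 days old at the start, with 2 arrays for each of 4 groups. The 0 h plants grew on phytagar plates with Gamborg's B5 medium at 24 °C in continuous light of 100 µmol m-2 s-1, and seed of all groups had been stratified for 4 days. The other groups spent 1 h, 24 h or 7 days at 4 °C in light of about 25 µmol m-2 s-1, so that cold and dimmer light cannot be told apart, and at 7 days the plants were also older. No plants kept warm for these times were analysed here, and the labels do not state whether both arrays of a group stand for different cultures.

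When a plant is moved to the cold, many transcripts change within hours, some through the CBF transcription factors and others with the slowing of growth and photosynthesis. Over days in the cold the plant acclimates: membranes, sugars and protective proteins are adjusted, and some of the early transcript changes are known to be transient.

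Of the 1274 probe sets that fell at 24 h by the same threshold with arrays that did not overlap, 144 (11.3%) were members, 499 (39.2%) were still at least 1 log2 unit below 0 h after 7 days and had not risen by 1, and 631 (49.5%) did neither. The median over members of the mean signal was 75.3 at 0 h, 80.2 at 1 h, 25.5 at 24 h and 80.8 at 7 days. Per array the median over members was 85.8 and 77.9 at 0 h, 78.6 and 80.0 at 1 h, 26.1 and 25.1 at 24 h, and 108 and 70.8 at 7 days. In these medians both 24 h arrays sat far under the other 6, and the widest gap between arrays of a group was at 7 days. Member by member, the arrays of a group differed most at 24 h. There 24.3% of members had arrays over 2-fold apart, against 7.14% of the probe sets tested. At 7 days the shares were 11.1% and 4.49%. The median log2 difference of members was -1.41 for 24 h against 0 h, 1.36 for 7 days against 24 h and -0.02 for 7 days against 0 h, beside -0.06, -0.01 and -0.05 over the 15017 probe sets tested. In whole plants, fewer cells of a type and less RNA per cell cannot be told apart as the source of a lower signal.

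**Figure D1:**
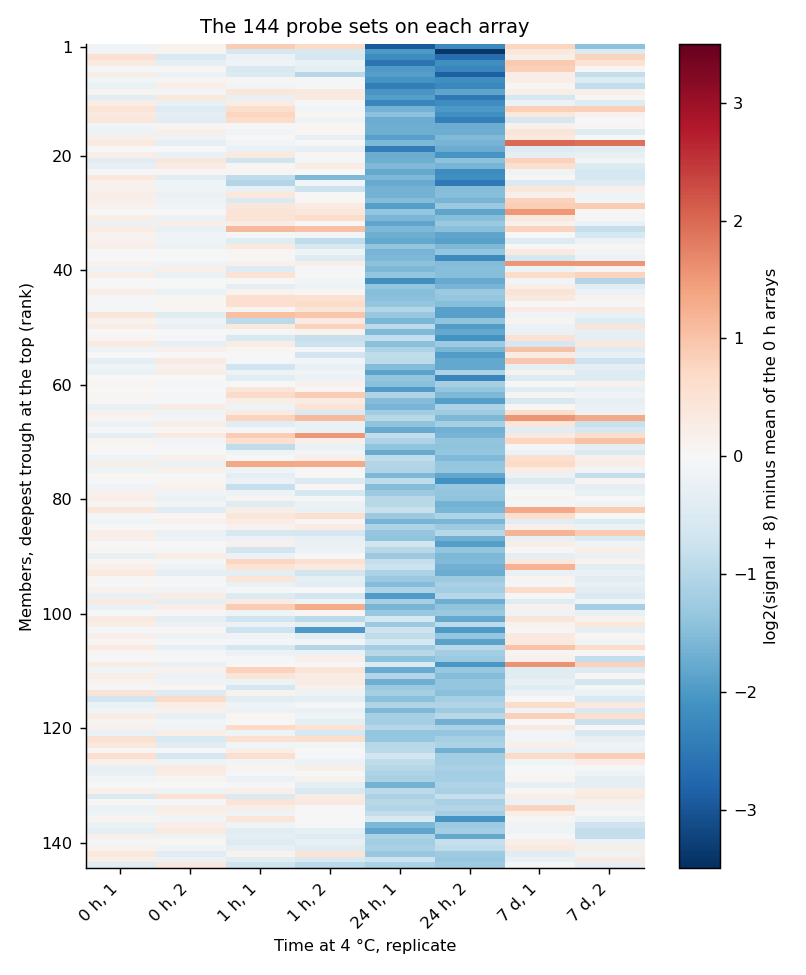
Each row is 1 of the 144 members and each column 1 of the 8 arrays. Colour is log2(signal + 8) minus the mean of the 0 h arrays, and rows run from the deepest trough to the shallowest. The 24 h columns are blue throughout, while the 1 h and 7-day columns are pale with single red and blue rows.

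Members differed in depth, taken as the smaller of the fall and the rise. The median depth was 1.21, with 8 members at 2 or more and 35 at 1.5 or more. Most members therefore lay within 0.5 of a threshold. Just inside the limit for the fall stood AT4G17240 (-1.015), AT4G01700 (-1.009) and AT3G62370 (-1.007), and just outside it AT2G45010 (-0.978), AT1G49170 (-0.97) and 257129_at (-0.968). For the rise, 266150_s_at (1.003), AQI (1.007) and AT4G15690 (1.014) were in, and AT5G61590 (0.998), 246117_at (0.994) and AT2G31800 (0.989) were out. For the return, AT5G38980 (-0.499), AT4G35750 (-0.493) and AT5G66490 (-0.491) were in, and 255671_at (-0.508), 249327_at (-0.515) and AT1G35612 (-0.521) were out. Leaving out an array moved the count most at 24 h: 348 probe sets met the rule without 24 h replicate 1 and 229 without 24 h replicate 2. In these counts 1 array fewer had to lie below the rest, and the 24 h mean was that of 1 array. They held 125 and 103 of the members.

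A probe annotation pairs 75 members with a single gene (52.1%, against 59.4% of all probe sets), 3 with several genes, and lists no gene for 66 (45.8%, against 38.4%). Of the 75 genes, 69 carry only a locus code and 6 a symbol. What a product does is given below as background knowledge, and the product classes were drawn up after the values had been seen. The genes lie on all 5 chromosomes, with 21, 10, 18, 13 and 13 members on chromosomes 1 to 5. These are 28.0%, 13.3%, 24.0%, 17.3% and 17.3% of them. Of all single-gene probe sets, 25.5%, 16.3%, 20.3%, 14.5% and 22.3% lie there.

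The deepest named trough was that of AT2G37130, a class III peroxidase of the secreted type that oxidises cell wall phenolics. Its signal was 393 and 445 at 0 h, 282 and 286 at 1 h, 97.6 and 32.4 at 24 h, and 547 and 294 at 7 days, a log2 fall of -2.55 and a rise of 2.55. The 1 h arrays were already under both 0 h arrays, and the 7-day arrays lay on either side of them. A second peroxidase of this class, AT5G64120, had a shallower trough, from 162 and 135 at 0 h to 66.0 and 59.5 at 24 h and 246 and 112 at 7 days.

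AT1G56220 encodes a protein of the dormancy- and auxin-associated family, named for transcripts that mark resting buds and respond to auxin. Its signal went from 916 and 1253 at 0 h and 1003 and 1021 at 1 h to 192 and 219 at 24 h, and was 1128 and 581 at 7 days. The 24 h arrays were close to each other, while the 7-day arrays were not: 1 lay inside the 0 h range and the other below it. AT3G11930, of the universal stress protein family, fell from 904 and 1013 to 271 and 201 at 24 h and came back to 861 and 619. Both its 7-day arrays were still below both 0 h arrays. AT2G23680, related to the WCOR413 cold-acclimation membrane proteins of wheat, had 38.2 and 28.6 at 0 h, 3.09 and 6.04 at 24 h, and 44.6 and 33.1 at 7 days.

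No role is given here for AT1G25275, AT1G19530 and AT5G38980. AT1G25275 read 1015 and 1152 at 0 h, 1112 and 1041 at 1 h, 246 and 236 at 24 h, and 1280 and 787 at 7 days. AT1G19530 read 110 and 119 at 0 h, 76.0 and 90.3 at 1 h, 22.8 and 17.0 at 24 h, and 209 and 119 at 7 days. AT5G38980 read 1704 and 1877 at 0 h, 519 and 551 at 24 h, and 1359 and 1171 at 7 days. In each of these the 24 h arrays stood apart from all others; only AT5G38980 had both 7-day arrays below both 0 h arrays.

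AT5G52760, of a family of heavy-metal-binding proteins, had 40.4 and 17.7 at 0 h, 45.8 and 24.9 at 1 h, 3.18 and 0.707 at 24 h, and 54.5 and 54.8 at 7 days. Its 24 h signals were near the bottom of the scale, where adding 8 before the log sets most of the fold. This held for many members: 61 had both 24 h arrays at or under the 40th percentile of their array, which lay between 23.1 and 28.0, although 120 had both 0 h arrays above it. The 0 h mean signal was under 40 in 41 members and 200 or more in another 41, so the fall is best measured in the brighter ones.

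**Figure D2:**
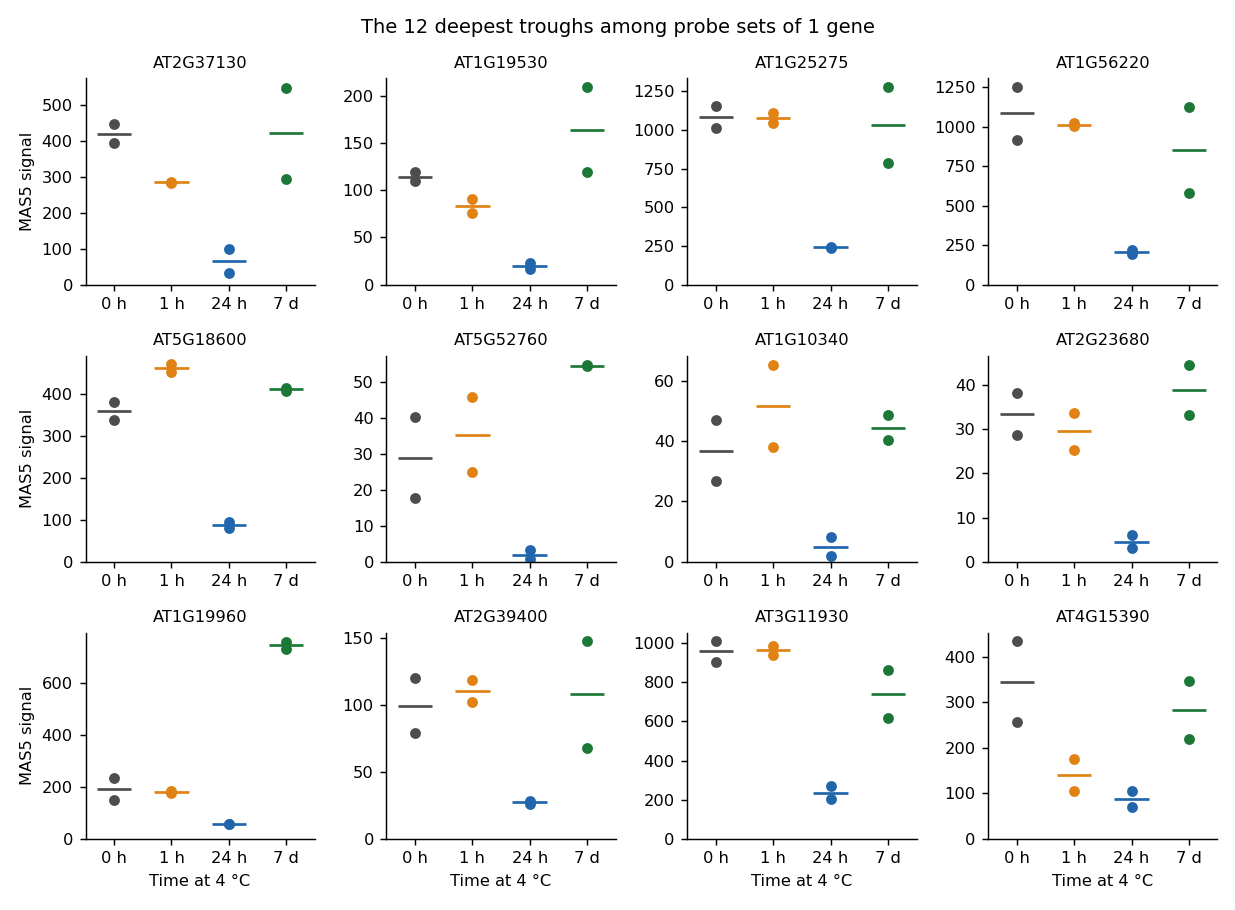
MAS5 signal on a linear axis against time at 4 °C for the 12 deepest troughs among members paired with 1 gene. Points are arrays and bars the mean of 2. In each panel both 24 h points lie below all 0 h and 7-day points, and AT1G19960 ends well above its start.

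Among unnamed probe sets the deepest troughs were 256098_at, 263096_at and 245265_at. 256098_at went from 57.6 and 69.0 at 0 h and 124 and 108 at 1 h to 1.32 and 7.08 at 24 h, and its 7-day arrays were 111 and 18.2. 263096_at went from 236 and 107 to 29.4 and 18.3 and then to 185 and 277. 245265_at went from 412 and 268 to 50.0 and 68.2 and then to 637 and 475. The last of these had both 7-day arrays above both 0 h arrays.

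Alpha/beta-hydrolases and lipases, enzymes that cleave ester bonds in lipids and other substrates, gave 7 members, the most of any class described. The genes of each class on the array were counted only for the glutaredoxin family below, so nothing is read from class sizes. The log2 fall of the 7 at 24 h ranged from -1.61 to -1.16. AT5G24210, a class 3 lipase, had 235 and 187 at 0 h, 278 and 258 at 1 h, 49.6 and 80.9 at 24 h, and 388 and 392 at 7 days. Its 7-day arrays exceeded every other array. AT3G14220, a GDSL esterase, had 316 and 402 at 0 h, 115 and 122 at 24 h, and 316 and 370 at 7 days, within the 0 h range. The hydrolase AT2G39400 fell from 79.2 and 120 to 28.5 and 25.9 and stood at 148 and 68.0 after 7 days, while AT4G15955 fell from 16.4 and 20.7 to 1.19 and 2.52 and returned to 16.4 and 12.9.

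Enzymes of secondary metabolism, which makes defensive and scent compounds, gave 6 members. AT4G15390, an acyltransferase of the HXXXD (BAHD) family, had 435 and 256 at 0 h, 175 and 106 at 1 h, 106 and 69.3 at 24 h, and 346 and 220 at 7 days. It was low already at 1 h, and its 1 h and 24 h arrays touched. AT2G03750, a sulfotransferase, had 252 and 242 at 0 h, 293 and 304 at 1 h, 81.5 and 59.3 at 24 h, and 166 and 199 at 7 days. Its 1 h arrays were above and its 7-day arrays below both 0 h arrays. AT1G55450, a methyltransferase-like protein, had 319 and 289 at 0 h, 484 and 571 at 1 h, 143 and 96.7 at 24 h, and 325 and 280 at 7 days. AT3G29410, of the terpene synthase family, fell from 47.0 and 41.4 to 20.7 and 4.27 and reached 66.1 and 33.3 at 7 days.

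Proteins grouped here under pathogen defence supplied 4 members. AT1G10340, an ankyrin repeat protein, went from 47.1 and 26.7 at 0 h to 8.15 and 1.80 at 24 h and 48.6 and 40.5 at 7 days. AT3G04210, a TIR-NBS protein of the kind that senses pathogens, went from 158 and 173 at 0 h and 254 and 263 at 1 h to 60.2 and 53.6 at 24 h and 166 and 161 at 7 days. Its replicates were close at every time, and the 7-day arrays fell within the 0 h range. AT4G01700, of a chitinase family, went from 69.5 and 58.5 to 24.9 and 30.7 and ended at 81.2 and 74.8, above both 0 h arrays. The peroxidase AT5G64120, described above, is the fourth, while the peroxidase AT2G37130 of the same family was not put in this class.

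Leucine-rich repeat receptor kinases, which carry signals from the cell surface, gave 3 members. AT1G35710 had 127 and 91.4 at 0 h, 33.1 and 39.0 at 24 h, and 149 and 91.7 at 7 days. AT5G59670 dropped to 1.33 and 0.757 at 24 h from 22.5 and 15.8, and AT1G51790 to 4.39 and 10.7 from 30.9 and 31.6. The MAP kinase ATMPK13, a relay of such signals, had 28.1 and 25.3 at 0 h, 9.67 and 5.38 at 24 h, and 28.0 and 32.5 at 7 days. These last signals are dim, and their folds rest on values near the bottom of the scale.

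Peptidases, which break down proteins, also gave 3 members. The cysteine proteinase AT3G45310 had 169 and 146 at 0 h, 76.4 and 44.3 at 24 h, and 149 and 145 at 7 days. AQI, a member of the M20 peptidase family known to bind an aquaporin, had 392 and 308 at 0 h, 158 and 94.9 at 24 h, and 333 and 191 at 7 days. The serine carboxypeptidase-like gene scpl31 had 34.5 and 53.6, then 13.0 and 9.11, then 32.4 and 36.8 at these times. AT3G45310 and AQI at 7 days each had 1 array within the 0 h range and 1 below it.

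CC-type glutaredoxins are small plant-specific oxidoreductases, several of which bind TGA transcription factors. The 4 members of this class were AT5G18600, AT3G62950, AT3G62930 and AT4G15690. AT5G18600 had 381 and 336 at 0 h, 471 and 452 at 1 h, 80.5 and 94.5 at 24 h, and 414 and 407 at 7 days. Its arrays did not overlap between any of the times, with 1 h highest and 24 h lowest. AT3G62950 had 24.8 and 14.6, then 51.7 and 47.0, then 1.11 and 1.92, then 38.8 and 7.27. AT3G62930 had 43.1 and 16.6, then 43.5 and 46.8, then 5.86 and 7.73, then 25.0 and 20.9. AT4G15690 stayed at 22.3 or less on all arrays and was not among the probe sets tested.

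Of 21 genes of this family, 17 have a probe set of their own, and 13 of these were no members. Their values are given without a test, because the family was looked up after the members had been seen. Of the 13, 8 had lower and 5 had higher 24 h than 0 h means. AT4G15660 (-1.24), AT4G15680 (-0.97), AT2G30540 (-0.91) and AT4G15700 (-0.80) had the most negative differences on the log2 scale, and the first of these rose by 0.74 from 24 h to 7 days. Among the 5 higher ones were AT2G47880 (0.99) and AT3G62960 (1.65), the latter going from 36.9 and 17.5 at 0 h to 78.5 and 127 at 24 h and 90.7 and 80.9 at 7 days. AT3G62960 lies in the same stretch of chromosome 3 as AT3G62930 and AT3G62950, which have 1 gene between them. At 1 h all 4 members had higher means than at 0 h, by 0.26 to 1.05, and so did 10 of the 13 others. The genes from AT4G15660 to AT4G15700 are close copies of each other, so their probe sets may read each other's transcripts and their separate levels are uncertain.

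**Figure D3:**
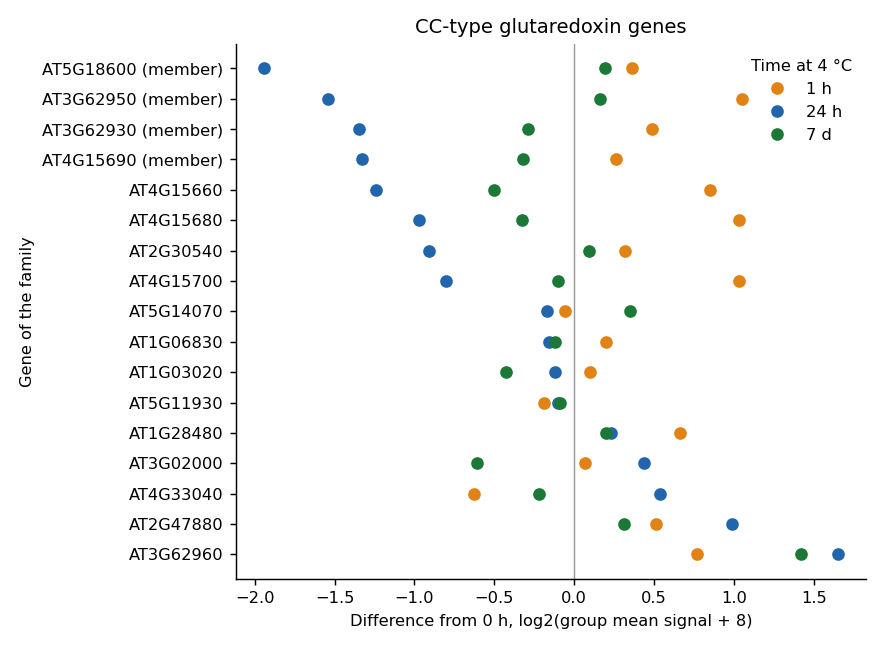
The 17 CC-type glutaredoxin genes with a probe set of their own, ordered by the 24 h difference, against the difference of each time from 0 h in log2(group mean signal + 8). The 4 members lie at the top with 24 h points between -1.94 and -1.33, and AT3G62960 at the bottom with 1.65.

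The arrays at 1 h took no part in the selection, although the 0 h arrays they are compared with did. There are no arrays between 1 h and 24 h, so the data do not show when the fall set in. After 1 h the members as a set stood where they had started, with a median log2 difference from 0 h of -0.06, beside -0.01 over all probe sets tested and -0.14 over the 499 probe sets that fell at 24 h and stayed down. Of the 131 members tested with limma (Benjamini-Hochberg over all 15017), 1 was called higher at 1 h, where 0.313% of all were, and 0 lower, where 0.00666% were. At an unadjusted limma p under 0.05, 13 of the 131 members were higher and 6 lower, beside 485 and 200 of all 15017 probe sets. In both directions the share was larger in the members, and the shares were not tested against each other. These p-values rest on the spread between arrays alone, which may be technical.

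The called member was 260037_at, which is paired with no gene here. It had 305 and 229 at 0 h, 686 and 679 at 1 h, 125 and 99.4 at 24 h, and 435 and 320 at 7 days. The limma log2 difference at 1 h was 1.34 ± 0.22 (SE, n = 2 arrays per group, adjusted p = 0.0227). Both 1 h arrays were above every array of the other times. The call was lost when 0 h replicate 2 was left out (limma adjusted p = 0.214), and likewise on leaving out replicate 1 (0.126) or replicate 2 (0.163) of the 1 h arrays, with differences of 1.14, 1.33 and 1.35. It was also lost with arrays set to equal medians (0.0533), with no filter on dim probe sets (0.0705) and with no intensity trend in the variances (0.0762).

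Single members moved in both directions in the first hour. Both 1 h arrays were above both 0 h arrays in 29 of 144 members (20.1%, against 16.2% of all probe sets) and below them in 34 (23.6%, against 16.7%). A log2 difference of 0.5 or more was seen in 15 members (10.4%, against 5.92% of all) and of -0.5 or less in 14 (9.72%, against 4.55%). Among the 499 probe sets that stayed down, 2.0% reached 0.5 and 13.0% reached -0.5. These shares were not tested against each other.

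The following members were chosen for their 1 h values. AT3G06070 had 198 and 280 at 0 h, 440 and 586 at 1 h, 71.1 and 84.0 at 24 h, and 261 and 99.6 at 7 days. It was not called at 1 h (limma log2 difference 1.08, adjusted p = 0.543). The Dof transcription factor AT2G34140 had 41.2 and 46.6 at 0 h, 23.2 and 4.81 at 1 h, 23.2 and 4.95 at 24 h, and 45.8 and 33.2 at 7 days. It was not called either (-1.37, adjusted p = 0.634). AT4G15390, described above, had a limma log2 difference of -1.25 at 1 h (adjusted p = 0.262). In the Dof gene the 1 h values lay as low as those at 24 h. In AT4G15390 a further log2 difference of -0.63 followed from 1 h to 24 h. Most members did not stand so low at 1 h.

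Between 1 h and 24 h, both arrays fell below both 1 h arrays in 140 of 144 members (97.2%, against 29.7% of all probe sets). The 4 exceptions were AT4G15390, AT2G34140, 245148_at and 253985_at. limma called 118 of the 131 tested members lower at 24 h than at 1 h and 0 higher, where 14.7% of all probe sets were called lower. The 24 h arrays chose the members, so nothing is read from this count. The median log2 difference was -1.39, close to the -1.41 from 0 h.

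**Figure D4:**
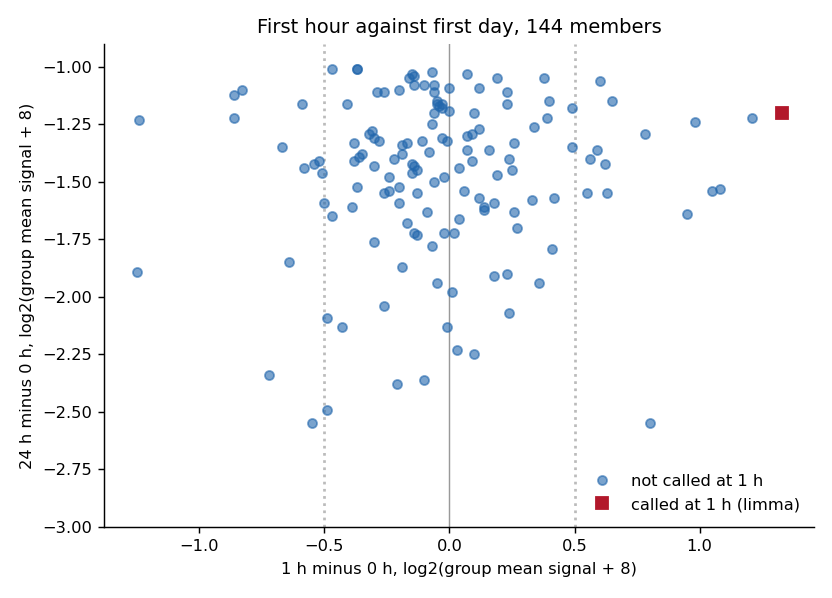
Each point is 1 of the 144 members. The horizontal axis is the difference of 1 h from 0 h and the vertical axis that of 24 h from 0 h, both in log2(group mean signal + 8), with dotted lines at 0.5 and -0.5. Most points scatter between the dotted lines on both sides of 0 at 1 h, and the called member (red square) lies at the right edge.

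After 7 days the mean signal was above the 0 h mean in 69 of 144 members, and it was within 0.25 log2 units of it in 69. In 24 members both 7-day arrays were above both 0 h arrays, and in 26 both were below, where 22.4% and 30.1% of all probe sets were. The rule bounds this contrast, so nothing is read from these counts. A surplus of 0.5 or more was seen in 16 members and of 1 or more in 6. AT1G19960, for which no role is given, had the largest surplus among named members: 233 and 149 at 0 h, 174 and 185 at 1 h, 56.8 and 55.4 at 24 h, and 757 and 730 at 7 days, 1.92 above 0 h on the log2 scale. AT3G60420, of the phosphoglycerate mutase family, had 165 and 93.1 at 0 h, 69.6 and 35.6 at 24 h, and 333 and 235 at 7 days. AT1G21520 had 39.9 and 34.5, then 13.5 and 9.31, then 68.1 and 83.9 at these times. In all of these the 7-day arrays lay above every other array. The unnamed 265837_at, chosen after its values were seen, had 341 and 282 at 0 h, 109 and 104 at 24 h, and 915 and 921 at 7 days.

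The 7-day arrays differed from each other in a common direction. Replicate 1 was above replicate 2 in 104 of 144 members (72.2%), against 50.8% of the probe sets tested. The same share was 61.1% at 0 h, 59.0% at 1 h and 62.5% at 24 h, against 49.5%, 47.6% and 46.8%. Relative to the mean of the 0 h arrays, the median member was at 0.10 on 7-day replicate 1 and at -0.19 on replicate 2, and 60 and 96 members were below 0 h on them. On replicate 2, 11 members were nearer to their 24 h than to their 0 h level, and on replicate 1 there were 0. One of them, AT5G66490, had 116 and 112 at 0 h, 19.6 and 28.1 at 24 h, and 106 and 51.5 at 7 days. Another was AT4G35750, of the SEC14 lipid-transfer family, with 372 and 584, then 123 and 201, then 416 and 258. AT1G21770, of an acyltransferase family, had 400 and 527, then 169 and 199, then 622 and 265. How completely such members returned therefore depends on which 7-day array is read. The rule would have admitted 199 probe sets without 7-day replicate 2 and 124 without replicate 1.

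**Figure D5:**
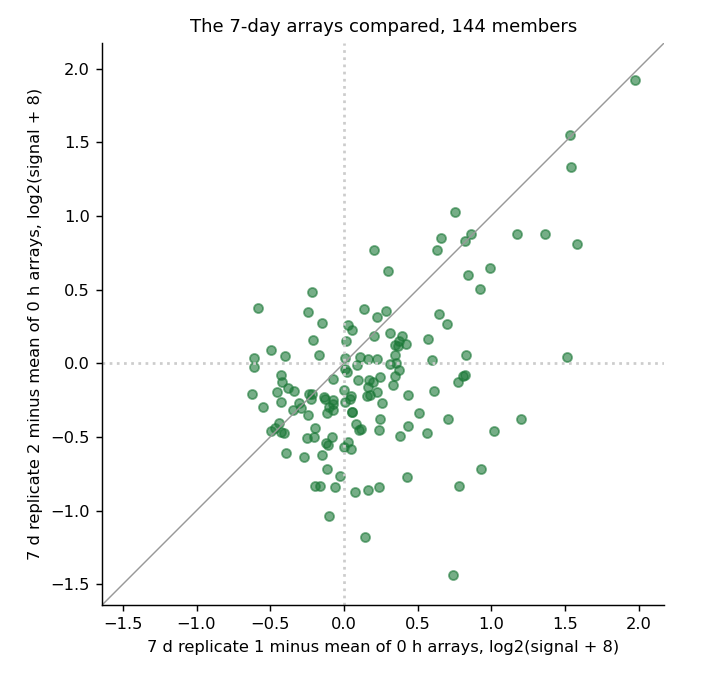
Each point is 1 of the 144 members, with its level on 7-day replicate 1 (horizontal) and replicate 2 (vertical), as log2(signal + 8) minus the mean of the 0 h arrays. The line marks equal levels. More points (104) lie below the line than above it, and AT1G19960 is at the upper right.

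Across the tested probe sets replicates correlated at 0.956 to 0.972, a description over probe sets that are not independent. Over the members alone the lowest correlation was 0.941, at 24 h. The 3' to 5' signal ratio of the actin control is a sign of RNA quality. Its values for replicates 1 and 2 were 3.83 and 5.91 after 7 days, and 6.53 and 3.44 after 24 h. The 0 h arrays gave 3.84 and 2.95, the 1 h arrays 5.32 and 3.95. For the GAPDH control this ratio ranged only from 1.22 (24 h replicate 2) to 1.45 (1 h replicate 2). The 7-day order was reversed there, with 1.33 on replicate 1 and 1.24 on replicate 2. Among marker genes for tissues, the leaf gene RCA read between 3676 and 6255 on the 8 arrays and the root gene PYK10 went from 2368 and 2177 at 0 h to 1730 and 959 at 24 h and 998 and 731 at 7 days. The root hair genes EXPA7 and EXPA18 were between 19.5 and 65.0, and the pollen gene LAT52 between 1.74 and 15.3. Only 1 of 7 leaf, 3 of 8 root and 1 of 6 flower and pollen markers have a probe set here. The part of RNA quality and of tissue make-up in the members' values was not tested.

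EXPA20, an expansin of the cell wall, is a member, with 30.9 and 27.0 at 0 h, 16.1 and 2.15 at 24 h, and 38.6 and 25.3 at 7 days. So is hemf2, a coproporphyrinogen oxidase gene of the tetrapyrrole pathway, with 33.2 and 31.0 at 0 h, 7.21 and 7.01 at 24 h, and 30.1 and 24.1 at 7 days. Their 7-day arrays lay around or below the 0 h arrays, and both genes are dim. Both were picked out, as was ATMPK13, after their values were seen, and neither is on the gene lists set up for comparison. The 17 lists took genes from sugar starvation, amino acid breakdown, autophagy, growth, hormones, light, photosynthesis and primary metabolism. They name 431 genes, of which 94 have a probe set and 85 were tested. The count of members among the 94 was 0, which at a share of members of 0.633% over the array says nothing about these pathways. The 5 genes that the rule leaves out by name are themselves on the lists. The lists were set up with earlier results of these data known, so nothing about their pathways is read from the shares that follow. At 24 h, limma called 33 of the 85 lower (38.8%, against 15.3% of all) and 10 higher (11.8%, against 11.8%). From 24 h to 7 days it called 7 higher (8.24%, against 4.83%) and 7 lower (8.24%, against 4.46%). That total of 14 fell to 9 on leaving out replicate 1 of the 24 h arrays and to 6 on leaving out replicate 2. On leaving out a 7-day array it was 6 (replicate 1) or 9 (replicate 2).

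Of the 33 listed genes called lower at 24 h, 4 (12.1%) were called higher again at 7 days, against 17.8% of the 2303 such probe sets on the whole array, which include members. Of 6 tested sugar starvation genes 4 fell at 24 h and 0 rose again by 7 days at the limma threshold. Of 11 tested genes of branched-chain amino acid and lysine breakdown 8 fell and 1 rose again, and autophagy likewise had 8 of 11 fall and 1 rise. The median log2 differences of these lists were -1.85, -1.11 and -0.99 at 24 h against 0 h, and 0.55, 0.42 and 0.50 at 7 days against 24 h. In the list of expansins and xyloglucan enzymes 4 of 16 fell at 24 h and 6 rose, and from 24 h to 7 days 1 rose and 4 fell.

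Each of the 4 is named because there are so few. MCCA, a subunit of an enzyme in the pathway of leucine breakdown, had 77.6 and 96.0 at 0 h, 19.8 and 4.28 at 24 h, and 69.0 and 30.4 at 7 days, with a rise of 1.56 ± 0.39 (SE, limma adjusted p = 0.0294). ATG8F, an autophagosome protein, had 769 and 634, then 206 and 143, then 289 and 346, with a rise of 0.85 ± 0.22 (limma adjusted p = 0.0355). EXPA8, an expansin that loosens the cell wall, had 248 and 554, then 20.7 and 46.9, then 165 and 88.5, with a rise of 1.70 ± 0.39 (limma adjusted p = 0.0222). In these 3 genes the 7-day arrays were still below both 0 h arrays. AT2G41090, a calcium-binding protein of the calmodulin kind, had 1283 and 1033, then 593 and 850, then 2401 and 2358.

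The falls of MCCA, ATG8F and EXPA8 at 24 h and the rise of AT2G41090 at 7 days kept their call under every alternative run, and the other 4 calls did not. The rise of MCCA was lost with no filter on dim probe sets (limma adjusted p = 0.0813), and without 24 h replicate 2 (0.162) or 7-day replicate 1 (0.228). That of EXPA8 was lost with no filter (0.0623), and without 24 h replicate 1 (0.126) or 7-day replicate 1 (0.178), and that of ATG8F when dim probe sets were kept (0.0642), when medians were made equal (0.057), when the variance trend was dropped (0.0638), and without 24 h replicate 2 (0.199) or without 7-day replicate 1 (0.102) or 2 (0.16). The fall of AT2G41090 at 24 h (-0.69, limma adjusted p = 0.0366) was lost when dim probe sets were kept (0.0727), when medians were made equal (0.0636), when the variance trend was dropped (0.0587), in a fit to only 4 arrays (0.0631), and without 0 h replicate 1 (0.183), 24 h replicate 1 (0.237), 7-day replicate 1 (0.0504) or 7-day replicate 2 (0.0509).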

How the data were processed

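The authors' deposited values are MAS5 intensities, linear and not logged; that MAS5 made them is known from the submitters' processing notes, and its version and settings are not stated there. In these values each array has a mean of 100.0 once its lowest and highest 2% of probe sets are set aside, and no further normalization was applied. Of 22810 probe sets in the table, 64 are controls. Genes were named through the platform annotation, updated with a RefSeq gene table (TAIR10.1) used for names and gene order only. Signals were analysed as log2(signal + 8), which understates the change of dim probe sets. Probe sets above the 40th percentile of their array on at least 2 arrays (15017) were tested with limma 3.58.1 in R 4.3.3, with 1 mean per group over all 8 arrays, an intensity trend, 4 residual and 7.67 prior degrees of freedom, and Benjamini-Hochberg adjustment with calls under 0.05. The number of arrays limits precision: the median standard error was 0.236 for 1 h against 0 h. The code was tested on simulated data.

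Members, lists and the naming rule were chosen with earlier results of these data known. Named members are, among those paired with 1 gene, the 12 deepest, the 6 with the highest 0 h mean, the 5 with the largest surplus at 7 days, those called at 1 h and all or the 4 deepest of each described product class; further, the 3 nearest to each limit on either side and the 3 deepest unnamed probe sets. Deviations of samples with the same replicate number correlated at 0.24 to 0.40 among 0 h, 1 h and 24 h but at -0.21 to -0.03 with 7 days, so the numbers were not taken as pairs. Alternatives were other normalizations, pseudocounts, filters, the replicate block and leaving out each array.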

Additional observations from a re-analysis of the deposited data

How the results depend on the processing

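The count of probe sets that meet the rule, 144, became 365 (134 of the members among them) with a pseudocount of 1 and 49 (48 among them) with 32. It was 141 with equal medians (130 of the members among them) and 151 with quantile normalization (133 among them). When 1 array was left out it ranged from 124 to 348. Of the 144 members, between 102 (without 7-day replicate 1) and 131 (without 7-day replicate 2) then still met the rule. The 1 member called at 1 h became 0 with equal medians, with no filter and with no intensity trend. With the replicate number as a block 2 were called, 1 higher and 1 lower, and the range with 1 array left out was 0 to 1. The labels do not say that the numbers pair samples, and same-numbered deviations correlated at 0.39 (0 h and 1 h), 0.40 (0 h and 24 h) and 0.24 (1 h and 24 h) but at -0.21, -0.03 and -0.17 with 7 days, so whether they do was not settled. The 14 listed genes called from 24 h to 7 days became 8 with no filter and 6 to 16 with 1 array left out. The 43 called at 24 h ranged from 32 to 47 and the 118 members lower at 24 h than at 1 h from 86 to 119. Among single genes and alternatives, 542 results kept direction and call, 66 kept direction and lost the call, and 0 reversed; the cause was not tested. Signal over background limits the dim members, for which no detection calls were used here.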
